A study of Gallus gallus with 10 samples.

Results

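The genes described here are SMAD2, RASA1, NEDD4L, VCP, UBAP2, TXNL1, GOLPH3, ST8SIA3 and MIER3. These 9 chicken genes were grouped under intracellular signalling, membrane trafficking and protein turnover, and listed as having a partner on the other sex chromosome. They were chosen by symbol and kind of function, with no measured value in the rule but with earlier results of these data known. They make up 9 of the 13051 genes on the array. A probe set is a group of short probes that together give 1 value. Some are designed to match several transcripts, and 12 of the 19 probe sets of the 9 genes are not of that kind. The 9 genes had 19 probe sets of their own among 38439 tested, namely 1 each for SMAD2, UBAP2, TXNL1, GOLPH3 and MIER3, 2 each for VCP and ST8SIA3, and 5 each for RASA1 and NEDD4L. Probe sets of a gene are numbered here from the brightest down, and the plots give their identifiers. A further probe set is annotated to both UBAP2 and its W partner UBAP2L2, and 5 are annotated to UBAP2L2 alone.

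RNA was total RNA from dissected whole brain of chicken embryos, measured on Affymetrix chicken arrays with 5 arrays for each sex. Sex was the only difference between the groups that the labels give, and they name dissection as the only treatment of both. The sources used here do not give embryonic age, breed or how many animals made up a sample. The title of male replicate 1, unlike the other titles, does not name the sex, and its description gave the group.

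Male birds carry a pair of Z chromosomes and females a Z and a W. The sex chromosomes descend from a pair of autosomes, and a small set of genes has survived on both. Such a Z gene and its W partner are called gametologs. Birds have no chromosome-wide silencing of a Z in males, so many Z genes are expressed at a higher level in males. Gametologs kept on the avian W are often regulators whose dose matters. The genes described here include genes of signalling, ubiquitin-dependent protein turnover and the Golgi, and whether their dose matters was not tested. Probes of a Z gene can also bind RNA of a similar W copy. Probe sequences were not used here, so the contribution of each copy to a probe set cannot be told apart. In the bGalGal1.mat.broiler.GRCg7b reference table, 8 of the genes are placed on Z and NEDD4L is placed on W. A search of that table by symbol and synonym found a partner for UBAP2 and ST8SIA3 only. Coordinates are left out because the sources used here name no build for the array.

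Levels are log2(intensity + 16) of the deposited intensities, and a difference is male minus female on that scale. The arrays were alike in scale, with median intensities from 592 to 720 and correlations between arrays from 0.918 to 0.946 across probe sets, which are not independent replicates. Their number limits the precision. Probe sets for virus sequences served as background, and their 95th percentile ran from 7.69 to 8.73 over the arrays. The median probe set had a level of 9.33, an intensity of 626, called the median level below. The W genes HINTW, SPIN1L and UBE2R2L checked the labels, with summed intensities of 164 to 603 on male and 102852 to 133333 on female arrays. Of 10 neuronal and progenitor markers, 9 were at or above the median level, the exception being GAP43. Summed intensities of these markers ran from 443206 to 550456 in males and from 483153 to 513728 in females. Markers of blood and choroid plexus (2 measured for each) and of mesenchyme, eye, pituitary and muscle (3 for each) were examined too. By limma's test of a sex difference 0 of them passed, with 2 at an unadjusted p under 0.05, against 5.07% of all autosomal genes. The choroid plexus gene CLIC6 had -0.78 (SE 0.24, adjusted p 0.294 by limma) with all females above all males. The pigment gene PMEL, of the eye list, had -0.57 (SE 0.24, adjusted p 0.625 by limma) at a level below the virus percentile. Summed choroid plexus markers ran from 90618 to 126672 in males and from 110304 to 134087 in females. Their part in the results was not tested.

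Most of the 9 genes had more RNA in male than in female brains, with male to female ratios from 1.44 to 1.84 in the 7 that passed the test at gene level. In whole tissue, more RNA per cell and more cells of a type that expresses the gene cannot be told apart. At gene level, with the brightest probe set for each gene, 7 of 9 genes (77.8%) passed the threshold as higher in males and 0 as higher in females, by limma with adjustment over all genes. The male-higher call was made for 1.59% of all genes, 33.2% of Z genes and 44.7% of Z genes at or above the median level. Female-higher calls made up 0.207% of all genes. NEDD4L and MIER3 did not pass. The median difference of the 9 genes was 0.63, a ratio of 1.55, against -0.02 for all genes and 0.47 for Z genes at or above the median level.

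By probe set, 10 of 19 (52.6%) passed as higher in males, by limma with adjustment over all probe sets. The background of that call was 0.643% of all probe sets, 16.1% of Z probe sets and 27.1% of Z probe sets at or above the median level. Their differences ran from 0.51 to 0.90 with adjusted p from 0.00213 to 0.0228. None of the 19 passed as higher in females, where the background was 0.156% of all probe sets. Without limma's adjustment, 17 of 19 had p under 0.05, against 6.85% of all, 44.6% of Z and 67.5% of brighter Z probe sets. A positive difference was found in 18 of 19, against 43.2%, 78.8% and 92.9%. All 5 males lay above all 5 females for 15 of 19 (78.9%), a pattern seen in 1.47% of all probe sets, 31.5% of Z probe sets and 52.4% of Z probe sets at or above the median level. Leaving out 1 array at a time gave 6 to 10 passing probe sets, with the 6 found without male replicate 2. Calls among the 1181 Z probe sets fell alongside, from 190 to between 134 and 161, with the 134 found without that same array. The directions of all 19 stayed the same in each of these fits.

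**Figure D1:**
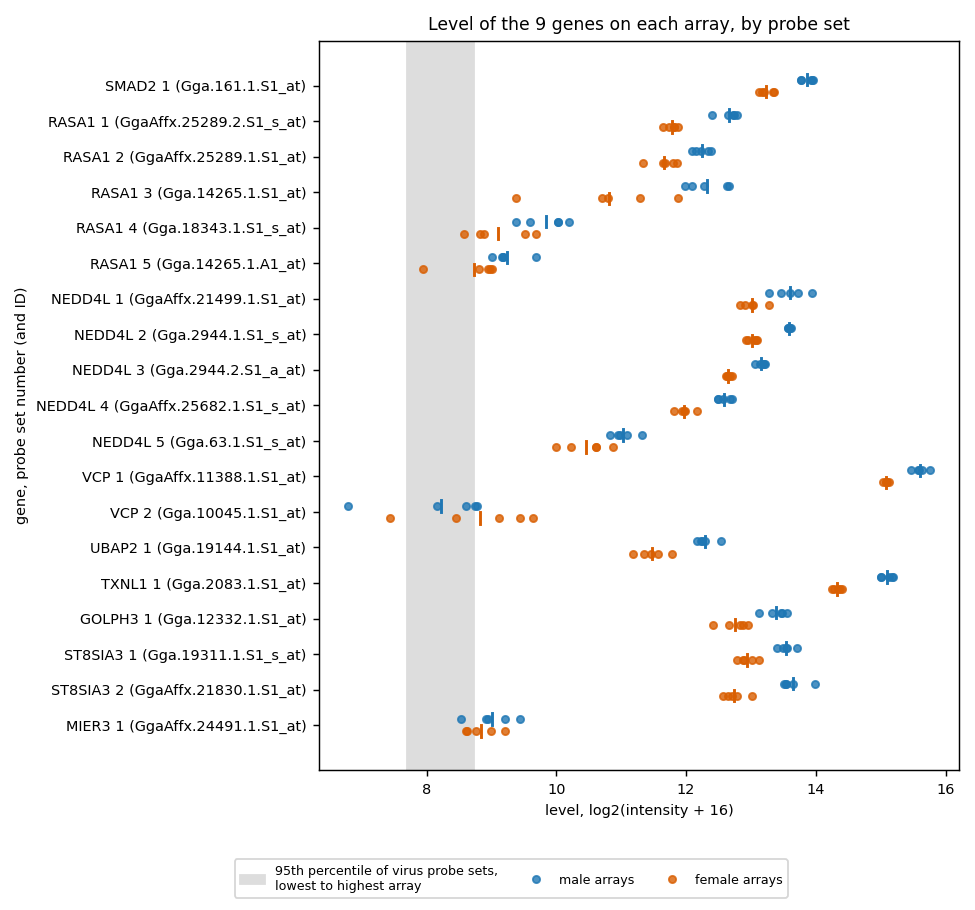
Level of each probe set of the 9 genes on each array, with its number and identifier at the left, as log2(intensity + 16) on the horizontal axis. Points are arrays, with 5 male arrays in blue and 5 female arrays in orange, vertical bars are group means, and the grey band spans the 95th percentile of virus probe sets from the lowest to the highest array (7.69 to 8.73). Male and female points do not overlap for 15 of the 19 probe sets, and the probe sets near the band are the dim ones of RASA1, VCP and MIER3.

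Signalling was represented by SMAD2 and RASA1. SMAD2 is a receptor-activated transcription factor that carries TGF-beta, activin and Nodal signals to the nucleus. Its probe set had levels of 13.77, 13.95, 13.92, 13.95 and 13.77 on male replicates 1 to 5. On female replicates 1 to 5 the levels were 13.20, 13.36, 13.33, 13.17 and 13.12. The lowest male array lay well above the highest female array. Male arrays averaged 13.87 ± 0.09 and female arrays 13.24 ± 0.10 (SD, n = 5 each). SMAD2 was higher in males by 0.63 (SE 0.09, 95% interval 0.44 to 0.83), a ratio of 1.55, with an adjusted p of 0.0091 by limma.

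RASA1 is a GTPase-activating protein that switches off Ras downstream of receptor tyrosine kinases and is known for its role in blood vessels. Its 5 probe sets all had a positive difference, and 1 of them passed the test. That one, probe set 1, is of the kind designed to match several transcripts, as is probe set 4. Probe set 1 read 12.73, 12.79, 12.74, 12.64 and 12.39 on male replicates 1 to 5. The female arrays read 11.82, 11.87, 11.64, 11.82 and 11.74 in the same order. Male and female arrays were separated by more than the range within either sex. RASA1 was higher in males here, with 12.66 ± 0.16 against 11.78 ± 0.09 (SD, n = 5 each). That difference was 0.88 (SE 0.10, 95% interval 0.66 to 1.10), a ratio of 1.84, with an adjusted p of 0.0031 by limma. It was the highest gene-level difference of the 9 genes.

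The other RASA1 probe sets were more scattered. Probe set 3 read 12.66, 11.98, 12.09, 12.28 and 12.63 on the males and 11.29, 9.37, 10.70, 10.79 and 11.88 on the females. All males lay above all females, but the females spanned a wide range, with replicate 2 lowest and replicate 5 highest. The difference was 1.52 (SE 0.41, 95% interval 0.60 to 2.44) with an adjusted p of 0.249 by limma. Probe set 2 also had all males above all females, with a difference of 0.58 (SE 0.12) and an adjusted p of 0.0705 by limma. Probe set 4 had a difference of 0.75 (SE 0.25, adjusted p 0.475 by limma), and 3 of its male arrays lay above all females. Probe set 5 lay under the median level and had a difference of 0.51 (SE 0.22, adjusted p 0.724 by limma) with no overlap between the sexes. Without female replicate 2 that difference was 0.31.

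Protein turnover was represented by NEDD4L, VCP and UBAP2. NEDD4L is a HECT-type ubiquitin ligase of the NEDD4 family that marks membrane proteins, such as sodium channels, for removal. The reference table places the annotated NEDD4L gene on W. Males carry no W, and all 5 probe sets were above the virus percentile on all 10 arrays. The signal on male arrays therefore does not come from a W gene. How much each copy adds on female arrays was not tested. The 5 NEDD4L probe sets all had positive differences, from 0.51 to 0.62, and 3 of them passed. All 3 are of the kind designed to match several transcripts, as is probe set 5. Probe set 1, which did not pass, is not of that kind. Probe set 2 read 13.60, 13.59, 13.57, 13.62 and 13.57 on the males and 13.07, 12.92, 13.09, 13.04 and 12.95 on the females. The male arrays were nearly equal to one another, and none came near a female array. Here NEDD4L was higher in males by 0.57 (SE 0.07), with 13.59 ± 0.02 against 13.01 ± 0.07 (SD, n = 5 each), a ratio of 1.49 and an adjusted p of 0.0054 by limma.

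On probe set 3, NEDD4L levels were 13.13, 13.19, 13.22, 13.18 and 13.06 in males and 12.67, 12.65, 12.62, 12.70 and 12.61 in females. These groups did not overlap either, and the difference was 0.51 (SE 0.07), a ratio of 1.42, with an adjusted p of 0.0107 by limma. Probe set 4, the last of the 3 to pass, had a difference of 0.62 (SE 0.09), a ratio of 1.54 and an adjusted p of 0.0157 by limma. Its call ended without male replicate 1, male replicate 2 or female replicate 3, with limma's adjusted p of 0.0516, 0.0539 and 0.0501.

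The brightest NEDD4L probe set, number 1, did not pass. It read 13.94, 13.61, 13.28, 13.45 and 13.72 on the males and 12.90, 13.01, 12.83, 13.03 and 13.27 on the females. The lowest male and the highest female array nearly touched without overlap. The difference of 0.59 (SE 0.14) was as large as for the others, with a wider spread and an adjusted p of 0.157 by limma. Because this probe set stands for the gene, NEDD4L did not pass at gene level (adjusted p 0.0729 by limma). It passed there without male replicate 3 (adjusted p 0.0398 by limma) and with the mean over its probe sets (difference 0.57, adjusted p 0.00289 by limma). Probe set 5 had a difference of 0.57 (SE 0.18, adjusted p 0.395 by limma), and 4 of its male arrays lay above all females.

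VCP is an abundant AAA ATPase, also called p97, that pulls ubiquitinated proteins out of membranes and complexes for degradation. VCP probe set 1 read 15.47, 15.57, 15.63, 15.76 and 15.59 on the males. The females read 15.12, 15.09, 15.09, 15.07 and 15.03. The female arrays formed a tight group under all male arrays. VCP was higher in males on this probe set, with 15.60 ± 0.11 against 15.08 ± 0.03 (SD, n = 5 each). The difference was 0.52 (SE 0.08), a ratio of 1.44, with an adjusted p of 0.0163 by limma. That call ended without male replicate 2, male replicate 3 or female replicate 4, with limma's adjusted p of 0.0513, 0.0540 and 0.0545.

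VCP probe set 2 was dim and gave no such pattern. Its levels were 8.17, 8.77, 6.79, 8.61 and 8.75 in males and 9.12, 7.43, 9.44, 9.63 and 8.46 in females. The sexes overlapped, and 8 of 10 arrays were above the 95th percentile of virus probe sets. The difference was -0.60 (SE 0.51, 95% interval -1.74 to 0.55) with an adjusted p of 0.906 by limma. It was -0.24 without male replicate 3, -0.39 without female replicate 4 and -0.94 without female replicate 2. With the mean over both probe sets, the gene-level difference of VCP was -0.037 (adjusted p 0.992 by limma), so the sign at gene level depended on the bright probe set.

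UBAP2 is a ubiquitin-associated domain protein related to UBAP2L, a component of stress granules. Its probe set read 12.23, 12.25, 12.17, 12.29 and 12.53 on the males and 11.78, 11.19, 11.46, 11.35 and 11.57 on the females. All males lay above all females, and the females were the more scattered. UBAP2 was higher in males by 0.82 (SE 0.13, 95% interval 0.54 to 1.11), with 12.30 ± 0.14 against 11.47 ± 0.23 (SD, n = 5 each). The ratio was 1.77 and the adjusted p 0.0178 by limma. The call was lost when male replicate 1, 2 or 4 was left out, or female replicate 3 or 4, with limma's adjusted p at or just above the threshold and no higher than 0.0592. At gene level it passed with an adjusted p of 0.00548 by limma.

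The W partner of UBAP2, named UBAP2L2 in the reference table with UBAP2W among its synonyms, passed as higher in females on 2 of its 5 probe sets and had a negative difference on 4. The background of a female-higher call was 0.156% of all probe sets. UBAP2L2 probe set 1, of the kind designed to match several transcripts, read 10.96, 10.64, 11.56, 11.13 and 11.40 on the females. The males read 7.20, 7.69, 7.02, 8.36 and 6.17. Every male array was under its own 95th percentile of virus probe sets and every female array above it. UBAP2L2 was therefore at least 7.80-fold higher in females on this probe set, with males set to that percentile (measured means 11.14 ± 0.36 and 7.29 ± 0.81, SD, n = 5 each, adjusted p 0.0015 by limma).

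UBAP2L2 probe set 3 gave levels of 10.23, 10.03, 10.27, 10.17 and 10.11 in females and 6.22, 5.17, 4.78, 7.61 and 5.49 in males. All female arrays were again above the virus percentile and all male arrays under it. The level was at least 3.96-fold higher in females, with measured means of 10.16 ± 0.10 and 5.85 ± 1.11 (SD, n = 5 each) and an adjusted p of 0.0026 by limma. The female means of the W partner's probe sets are not compared with the level of UBAP2, since levels of different probe sets are not on a common scale.

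The remaining 3 probe sets annotated to UBAP2L2 did not pass. Probe set 4 read 8.85, 6.66, 8.75, 8.42 and 8.67 on the females and 7.06, 7.02, 5.40, 7.49 and 6.84 on the males, so 4 female arrays lay above all males and female replicate 2 did not. Its difference was -1.51 (SE 0.51, adjusted p 0.475 by limma). Probe set 2 was above the virus percentile on all 10 arrays, with overlapping sexes and a difference of 0.00 (SE 0.19, adjusted p 0.999 by limma). Males carry no W, so its signal on male arrays does not come from a W gene, and its source was not tested. Probe set 5 was above the virus percentile on 0 arrays, with a difference of -0.59 (SE 0.59, adjusted p 0.922 by limma). The probe set annotated to both UBAP2 and UBAP2L2 was above it on 5 arrays and had a difference of 0.01 (SE 0.79, adjusted p 0.999 by limma), with wide overlap.

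**Figure D2:**
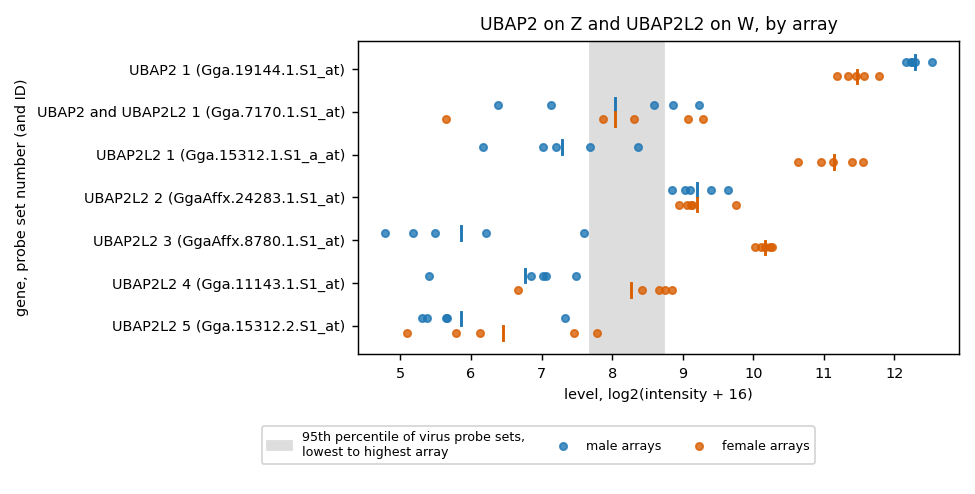
Level of the probe sets of UBAP2 and of its W partner UBAP2L2 on each array, as log2(intensity + 16) on the horizontal axis. Points are arrays, with 5 per sex, vertical bars are group means, and the grey band spans the 95th percentile of virus probe sets over the arrays. UBAP2 lies higher in males, 2 UBAP2L2 probe sets lie far higher in females with the males in or under the band, and UBAP2L2 probe set 2 lies above the band in both sexes.

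TXNL1 is a thioredoxin-like protein that associates with the proteasome. It had the lowest adjusted p of the 9 genes. Its probe set read 15.12, 15.00, 15.01, 15.17 and 15.18 on the males and 14.24, 14.37, 14.28, 14.34 and 14.41 on the females. Both groups were tight and far apart relative to their ranges. TXNL1 was higher in males, with 15.10 ± 0.09 against 14.33 ± 0.07 (SD, n = 5 each). The difference was 0.77 (SE 0.08, 95% interval 0.59 to 0.95), a ratio of 1.70, with an adjusted p of 0.00213 by limma, and it passed without each array in turn.

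The Golgi genes were GOLPH3 and ST8SIA3. GOLPH3 binds phosphatidylinositol 4-phosphate at the Golgi and acts in vesicle budding and in the retention of glycosylation enzymes. Its probe set read 13.55, 13.47, 13.12, 13.32 and 13.46 on the males and 12.83, 12.96, 12.42, 12.66 and 12.87 on the females. The groups did not overlap, and replicate 3 was the lowest array in each sex. Male arrays averaged 13.38 ± 0.17 and female arrays 12.75 ± 0.21 (SD, n = 5 each). The GOLPH3 difference was 0.63 (SE 0.13, 95% interval 0.34 to 0.93). It did not pass over all probe sets (adjusted p 0.0809 by limma) and passed over genes (adjusted p 0.0315 by limma). The gene-level call was lost when male replicate 1, 2, 4 or 5 was left out, or female replicate 1 or 4, with limma's adjusted p from 0.0668 to 0.0932.

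ST8SIA3 is a brain-enriched sialyltransferase that adds sialic acid to sialic acid on glycoproteins and gangliosides. Probe set 2 read 13.53, 13.51, 13.64, 13.99 and 13.54 on the males and 12.78, 12.70, 12.57, 12.64 and 13.01 on the females. All males lay above all females, with male replicate 4 standing above the other males. The difference was 0.90 (SE 0.13), the highest among the passing probe sets, with a ratio of 1.87 and an adjusted p of 0.0099 by limma. Probe set 1 read 13.41, 13.56, 13.53, 13.71 and 13.49 on the males and 12.89, 13.13, 12.87, 12.78 and 13.02 on the females, again without overlap. Its difference was 0.60 (SE 0.10), a ratio of 1.52, with an adjusted p of 0.0228 by limma. Probe set 1, but not probe set 2, is of the kind designed to match several transcripts.

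The probe set 1 call for ST8SIA3 was the least firm of the 10. It was lost when male replicate 2, 3, 4 or 5 was left out, or female replicate 1, 3 or 4, with limma's adjusted p from 0.0586 to 0.0763, while the gene-level call (adjusted p 0.00508 by limma) held without each array. The reference table also lists a W gene named ST8SIA3L, for which 0 probe sets are annotated.

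MIER3 belongs to a family of ELM2 and SANT domain proteins that recruit histone deacetylases to chromatin. Its probe set lay near the background on both sides, with 8.94, 9.21, 9.44, 8.54 and 8.91 in males and 8.99, 8.63, 8.76, 9.20 and 8.60 in females. The sexes overlapped, although every array was above its virus percentile. The means were 9.01 ± 0.34 and 8.83 ± 0.26 (SD, n = 5 each). The MIER3 difference of 0.17 (SE 0.19, 95% interval -0.25 to 0.60) did not pass, with an adjusted p of 0.929 by limma, and its interval includes the median of brighter Z probe sets. It was 0.065 without male replicate 3, 0.12 without female replicate 5, 0.27 without female replicate 4 and 0.29 without male replicate 4.

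**Figure D3:**
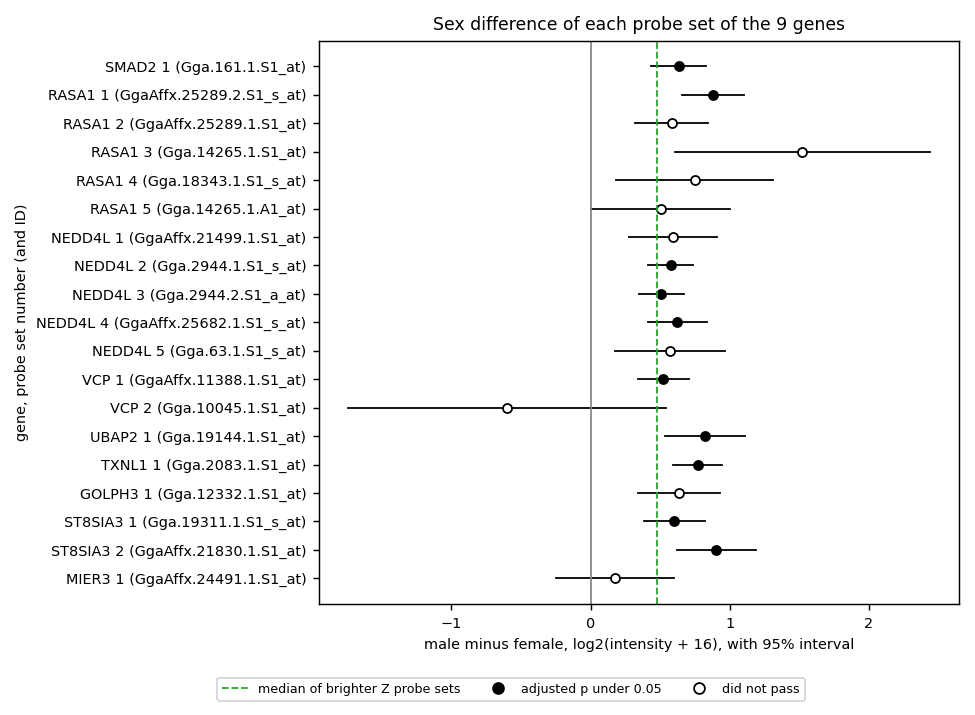
Male minus female difference of each probe set of the 9 genes on the log2(intensity + 16) scale, with the 95% interval from limma as a horizontal line. Filled points have an adjusted p under 0.05 and open points do not, and the dashed line is the median of Z probe sets at or above the median level, 0.48. Of the 19 points, 10 are filled, all to the right of 0, and only the dim VCP probe set lies to the left.

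A Z gene whose RNA followed copy number, and whose probes bound no W copy, would have a male to female ratio of 2. Of the 10 passing probe sets, 7 belong to genes placed on Z, and in 4 of these the upper bound of the 95% interval was under 2. The interval included 2 for the other 3. At gene level, 5 of the 7 genes placed on Z and at or above the median level had an upper bound under 2, the exceptions being RASA1 and UBAP2. That count rests on the brightest probe set of each gene. ST8SIA3 probe set 2 had an interval of 1.54 to 2.28, which includes 2. RASA1 probe set 2 had an upper bound of 1.80. The 3 passing probe sets of NEDD4L, placed on W, are left out of these counts. How many Z genes in general had an upper bound under 2 was not counted. The median difference of Z genes at or above the median level was a ratio of 1.39, so the counts are not particular to these genes. The counts use the deposited scaling only, and array scaling moves such ratios. The SMAD2 difference of 0.63 became 0.69 with autosomal centring and 0.62 with quantile normalization. A pseudocount and background in the signal lower such ratios, more so for dim probe sets. Binding of RNA from a W copy in females would lower them too, and its part was not tested.

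Relative to the 445 Z genes at or above the median level, the 9 genes were spread over much of the range. RASA1 stood at percentile 86.5 of their gene-level differences and UBAP2 at percentile 80.9. TXNL1 followed at 74.4, and GOLPH3, SMAD2, ST8SIA3, NEDD4L and VCP lay between 53.9 and 62.0. MIER3, at 17.5, was the only one under the middle of that distribution. The 95% intervals of neighbours in this order overlapped, MIER3 included. The median of the 9 was 0.63 against 0.47 for these Z genes, and no test of that difference was made. The order of the genes rests on the brightest probe set of each. Among Z probe sets at or above the median level, ST8SIA3 stood at percentile 60.1 by probe set 1 and 87.5 by probe set 2. RASA1 stood there at 86.2 by probe set 1 and 58.3 by probe set 2.

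**Figure D4:**
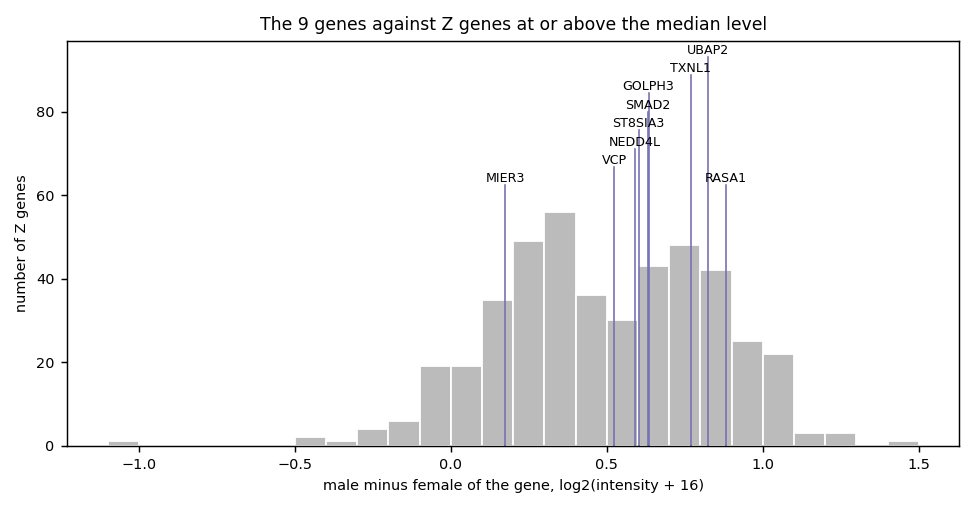
Histogram of male minus female differences at gene level, log2(intensity + 16), over the 445 Z genes at or above the median level, in bins of 0.1, with the number of genes on the vertical axis. Vertical lines mark the 9 genes, of which NEDD4L is placed on W and MIER3 lies under the median level, so neither is counted in the bars. RASA1, UBAP2 and TXNL1 lie in the upper part of the distribution and MIER3 in the lower part.

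Where a gene had several probe sets, the sex effect of the brightest was tested against that of each other. Of 10 such pairs in 4 genes, 0 passed by limma with adjustment over 14117 pairs, and 1 had an unadjusted p under 0.05. Over all genes, 0 pairs passed (0% called) and 5.09% had an unadjusted p under 0.05. For NEDD4L the brightest probe set differed from the others by -0.03 to 0.08, with 95% intervals within -0.50 and 0.55. For ST8SIA3 the difference between probe sets was -0.30 (SE 0.13, unadjusted p 0.0428, adjusted p 0.947 by limma). For VCP it was 1.12 (SE 0.51, 95% interval -0.01 to 2.26, adjusted p 0.947 by limma), an interval that includes both equal effects and opposite ones. For RASA1 the differences ran from -0.64 to 0.37, all with adjusted p of 0.947 or more by limma. Among the UBAP2L2 pairs, probe set 1 less probe set 2 came to -3.85 (SE 0.42, adjusted p 0.0642 by limma). That pair passed without female replicate 2 (-4.12, adjusted p 0.0450 by limma) and with a pseudocount of 64 (-3.47, adjusted p 0.0132 by limma).

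Genes that act with the 9 were examined through 9 lists of related genes, with 182 measured genes in all. Of these, 173 were not on Z, and 0 of them passed by limma over all genes, with 3 (1.73%) at an unadjusted p under 0.05 against 5.07% of all autosomal genes. The remaining 9 were on Z, and 3 of them passed as higher in males and 0 as higher in females, where 33.2% of Z genes passed as higher in males. List medians ran from -0.04 to 0.05, against -0.02 for all genes.

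In the TGF-beta and activin list around SMAD2, 0 of 24 measured genes passed by limma, with 2 at an unadjusted p under 0.05. The lowest p belonged to SMAD3, the other receptor-activated mediator of this pathway, with a difference of -0.32 (SE 0.12, adjusted p 0.484 by limma). The other was the ligand NODAL, with -0.48 (SE 0.19, adjusted p 0.576 by limma). FST and SMAD7, an extracellular and an intracellular inhibitor of the pathway, are on Z and had differences of 0.25 and 0.06. In the Ras list around RASA1, 0 of 19 genes passed by limma and 0 had an unadjusted p under 0.05. The lowest p was that of RASA2, another Ras GTPase activator, with 0.31 (SE 0.16, adjusted p 0.762 by limma).

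Around NEDD4L, 0 of 19 ligases, adaptors and substrates passed by limma, with 1 at an unadjusted p under 0.05. That gene, ARRDC3, is an arrestin-like adaptor on Z, with a difference of 0.66 (SE 0.21, adjusted p 0.338 by limma). Among 24 cofactors of VCP and genes of ER-associated degradation, 1 passed. It was PLAA, a ubiquitin-binding cofactor of VCP that is on Z, with 12.95 in males against 12.18 in females and no overlap. PLAA was higher in males by 0.77 (SE 0.07) with an adjusted p of 0.000228 by limma. The other 23 did not pass, and the list median was -0.02. Among 10 relatives of UBAP2 and stress granule genes, 0 passed by limma and 0 had an unadjusted p under 0.05. The lowest p was that of G3BP2, a stress granule assembly protein, with -0.20 (SE 0.12, adjusted p 0.812 by limma).

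In the thioredoxin list around TXNL1, 0 of 23 genes passed by limma, with 3 at an unadjusted p under 0.05. TXN, cytosolic thioredoxin, is on Z. Its difference was 0.31 (SE 0.08, adjusted p 0.144 by limma) without overlap between the sexes. GLRX, a glutaredoxin on Z, had 0.68 (SE 0.26, adjusted p 0.526 by limma). MSRA, a methionine sulfoxide reductase that is not on Z, had -0.16 (SE 0.07, adjusted p 0.629 by limma). Among 26 Golgi trafficking genes around GOLPH3, 0 passed by limma and 0 had an unadjusted p under 0.05, the lowest p being that of GORASP2, a Golgi stacking protein, with -0.46 (SE 0.22, adjusted p 0.697 by limma).

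Of 23 genes of sialic acid synthesis and transfer around ST8SIA3, 2 passed as higher in males, both enzymes of sialic acid synthesis on Z. GNE, which makes the committed precursor, had a difference of 0.57 (SE 0.09, adjusted p 0.00802 by limma). NANS, the sialic acid synthase, had 0.31 (SE 0.06, adjusted p 0.0238 by limma). ST8SIA5, a related sialyltransferase on Z, had -0.10 (SE 0.23, adjusted p 0.964 by limma). In the list of MIER relatives and deacetylase partners, 0 of 17 passed by limma and 0 had an unadjusted p under 0.05, with the lowest p for RCOR1, a corepressor, at 0.20 (SE 0.09, adjusted p 0.681 by limma).

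A last list held other Z genes with a known W partner, with 10 gene entries measured under the listed symbols. Of these, 5 passed as higher in males, 2 as higher in females and 3 did not pass, with a median of 0.51. Of the 15 listed symbols, NIPBL, ZFR, KCMF1, HINT1, ATP5F1A and C18orf25 had no entry. The Z genes named ATP5F1AZ (0.47) and CZH18ORF25 (-0.30) on the array were not counted. Among all Z genes 33.2% passed as higher in males and 0.33% as higher in females. The 5 were UBE2R2 (0.88), SPIN1 (0.83), HNRNPK (0.69), CHD1 (0.61) and BTF3 (0.56), from ubiquitin conjugation, chromatin reading, RNA binding, chromatin remodelling and transcription. Both female-higher entries carried the symbol ZSWIM6, with -0.71 for the one placed on Z and -0.87 for an unplaced one. Of the 9 genes of signalling and protein handling, 0 passed as higher in females.

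**Figure D5:**
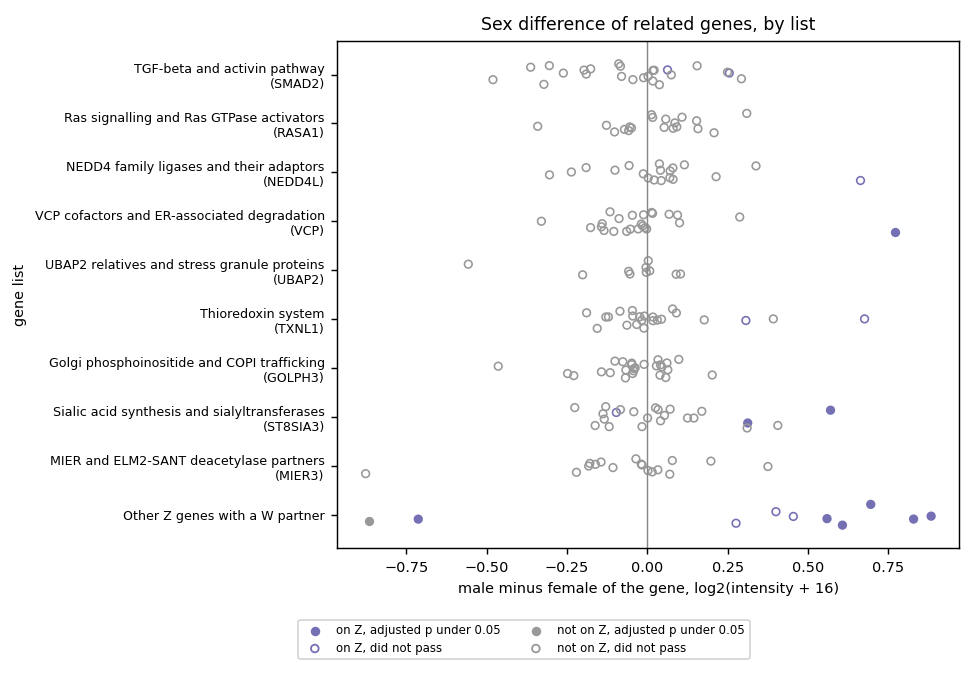
Male minus female difference at gene level, log2(intensity + 16), of the measured genes in each list of related genes, with 1 point for each gene. Purple points are on Z, grey points are not, and filled points have an adjusted p under 0.05. Points not on Z centre on 0 in the 9 lists named for a member, and the filled points of those lists are PLAA, GNE and NANS, all on Z.

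The nearest measured genes on either side in the gene order of the reference assembly, 2 on each side, were set beside the 8 genes placed on Z. Genes between them were not measured, and a neighbour could lie up to 14 places away, as DCAF12L2 did from UBAP2. TXNL1 and ST8SIA3 are among each other's nearest genes and were not counted as neighbours. Of 29 different neighbours, 9 (31%) passed as higher in males by limma and 0 as higher in females, and 22 had a positive difference, with a median of 0.44. Among Z genes in general 33.2% passed as higher in males, 82.3% had a positive difference and the median was 0.40. SMAD2 (0.63) had HDHD2 (0.97, SE 0.11), which passed, and SKOR2 (0.80, SE 0.60), which did not, on one side. On the other side, ZBTB7C (0.12, SE 0.28) and CTIF (-0.24, SE 0.39) did not pass. SKOR2 and CTIF lay under the median level. TXNL1 (0.77) and ST8SIA3 (0.60) are close together with WDR7 between them, which had 0.19 (adjusted p 0.877 by limma). VCP (0.52) had FANCG (0.93) and STOML2 (0.44), both passing, on one side and PHF24 (0.14) and DNAJB5 (-0.15) on the other.

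MIER3 (0.17) did not pass while 3 of its 4 neighbours did, namely SETD9 (0.80), GPBP1 (0.85) and PLK2 (0.44). The reverse held for GOLPH3 (0.63), which passed at gene level while its neighbours PMAIP1 (-0.47), PDZD2 (-0.12), MTMR12 (0.36) and ZFR2 (-0.09) did not. Of these neighbours, PMAIP1 and MTMR12 lay under the median level, and the GOLPH3 call itself was lost without some single arrays. MIER3 also lay under the median level, at 8.92, while SETD9, GPBP1 and PLK2 had levels of 11.94, 11.95 and 13.36. Differences between a gene and its neighbours were not tested. NEDD4L has W neighbours in that assembly, and SPIN1L (-5.42), LOC431003 (-4.56), LOC107049459 (-6.27) and LOC430910 (-5.18) all passed as higher in females. The farthest of them, LOC430910, lay 11 places away. With 0.59, NEDD4L itself had the opposite sign to its 4 W neighbours, and its value lay within the range of the other genes described here.

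Likeness of pattern was measured as the Pearson correlation over the 10 arrays after each sex's mean was subtracted, among 9279 genes at or above the median level, and is a description. All values share the same arrays and their scaling. The genes named are those with the highest of 9279 correlations over 10 arrays, and how high such values run by chance was not tested. The closest genes were POLR2B (0.967) and FAM118B (0.945) for SMAD2, and BORCS7 (0.935) and COX19 (0.929) for RASA1. For NEDD4L they were MRPS6 (0.972) and CCPG1 (0.967), and for VCP DUSP12 (0.986) and RPL15 (0.981). AMOTL2 (0.915) and NKRF (0.907) came closest to UBAP2, and SRD5A3 (0.963) and IQCK (0.946) to TXNL1. GOLPH3 was most like MARCKS (0.948) and CEP78 (0.939), the latter on Z. ST8SIA3 was most like S1PR1 (0.949) and ROBO2 (0.934), and MIER3 most like KCTD8 (0.941) and ZNF512 (0.928). No gene appeared for more than 1 of the 9.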

How the data were processed

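The deposited values are linear intensity values, 1 per probe set and array, for 38535 probe sets on 10 arrays, 5 per sex. How the authors summarised and scaled them is not stated in the sources used here. After removal of the highest and lowest 2% of values, the mean intensity was 2500 on every array. Without 96 control probe sets, 38439 were tested. The platform annotation gave 1 gene symbol to 27168 of them, several to 177 and none to 11094. Of 13051 genes, 12872 were matched by identifier to the reference gene table.

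Values were taken as log2(intensity + 16), where the pseudocount understates changes of dim genes, with no further normalization or filter. The male minus female difference was fitted in R 4.3.3 by lmFit and eBayes of limma 3.58.1. P-values were adjusted after Benjamini and Hochberg over probe sets, genes (brightest probe set each) or pairs of probe sets, with a threshold of 0.05. The fits were tested on simulated data. Nothing says that samples came from separate embryos, so a p-value reflects only how these samples vary, and that variation may be technical.

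All probe sets of the 9 genes and of W-placed partners were named whatever their values. Each list named its genes past the threshold, up to 4, or the gene with the lowest p, and Z members of a list were added. NODAL, MSRA, CLIC6 and PMEL were named after their values were seen. The last list names its passing genes in full. The members and lists were chosen with earlier results of these data known, and the neighbours in gene order were chosen after the data were seen. Alternatives covered pseudocounts, normalization, centring, filters, variance models, array weights, a block on title letters and each array left out.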

Additional observations from a re-analysis of the deposited data

Results flagged for a closer look

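Of 50 groups of 5 arrays (25 probe sets in each sex), 6 held an array whose gap to its nearest neighbour took more than 0.71 of the group's range, Dixon's 95% critical value, where chance gives about 1 in 20. For RASA1 probe set 5, male replicate 4 was highest at 9.68 (nearest 9.18, 0.745 of the range) and female replicate 2 lowest at 7.95 (nearest 8.80, 0.812). For ST8SIA3 probe set 2, male replicate 4 was highest at 13.99 (nearest 13.64, 0.729). The other 3 groups belonged to UBAP2L2. Female replicate 2 was lowest on probe set 4 at 6.66 (nearest 8.42, 0.803) and highest on probe set 2 at 9.75 (nearest 9.13, 0.774). Male replicate 2 was highest on probe set 5 at 7.32 (nearest 5.65, 0.826). Female replicate 2 appeared in 3 of the 6 groups and male replicate 4 in 2.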

How the results depend on the processing

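The count of 10 male-higher probe sets stayed at 10 with pseudocounts of 1 and 64, quantile normalization, autosomal centring, robust variances and array weights. It was 13 without dim probe sets, 14 with an intensity trend in the variance and 5 of 12 without probe sets designed to match several transcripts. Calls among Z probe sets moved with it, from 16.1% to 43.5%, 25.6% and 11.6%. Over 389 single values under alternatives, 347 kept direction and call, 35 lost the call, 7 gained it and 0 changed sign. GOLPH3, RASA1 probe set 2 and NEDD4L probe set 1 gained it without dim probe sets (adjusted p 0.0147, 0.0119 and 0.0375 by limma) and with the trend. No label says whether the title letters B to E pair the samples. Over all probe sets, deviations of same-letter samples from their sex means correlated at -0.05 to 0.03. Those of samples with different letters correlated at -0.05 to 0.03 as well. With so few samples for each letter, these values cannot decide whether the letters pair the samples. The replicate block on these letters, over 8 arrays, left 0 male-higher probe sets, 0 genes and 0 female-higher UBAP2L2 probe sets, against 3 probe sets on those arrays without it, an alternative chosen after seeing the data. The block called 0 of all 1181 Z probe sets and the same arrays without it 90. Leaving out each array gave 6 to 10 probe sets and 6 to 8 genes. UBAP2L2 probe set 5 then ran from -0.96 to -0.26. Of the lists, the thioredoxin count of male-higher genes became 1 with quantile normalization. With the mean over probe sets, the sialic acid count became 1 and that of other Z genes with a W partner 3, with 1 female-higher, as under quantile normalization. Sign changed for VCP at gene level with the mean over probe sets (-0.037). With a pseudocount of 64, it also did for the probe set shared by UBAP2 and UBAP2L2 (-0.027) and for UBAP2L2 probe set 1 less probe set 3 (-0.047). When single arrays were left out, the shared probe set ran from -0.59 to 0.42 and UBAP2L2 probe set 2 from -0.10 to 0.14. The NEDD4L pairs then ran from -0.065 to 0.097 (against probe set 2), -0.0078 to 0.18 (probe set 3), -0.085 to 0.13 (probe set 5) and -0.093 to 0.046 (probe set 4), and the RASA1 pair against probe set 4 from -0.023 to 0.27. The cause of these changes was not tested.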
